A study of Mus musculus with 4 samples.

Results

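Kruppel-like factors (KLFs) were examined as a set of 10 genes, Klf2, Klf3, Klf4, Klf5, Klf6, Klf7, Klf9, Klf10, Klf12 and Klf13, in a DNase-seq map of open chromatin from lymphoid tissue inducer (LTi) cells. An accessible region, called an island, was assigned to a gene when the nearest end of any protein-coding gene, within 50 kb, was an end of that gene, or when it lay wholly inside the gene body. By this rule 21 of the 16584 islands of the table belonged to the set. They were spread over 9 of the 10 genes, and Klf12 had none.

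The cells were LTi cells, an innate lymphoid type that starts the formation of lymphoid organs, sorted from Peyer's patches of C57BL/6 mice. Controls were Tcf7+/+ (2 libraries), and the other group was Tcf7-KO (2 libraries), with floxed Tcf7 alleles (Tcf7fl/fl) that a Cre recombinase removes. Tcf7 encodes the transcription factor TCF-1. Each library came from 300 cells of the gate Lin-CD127+ KLRG1-NK1.1-NKp46-CCR6+, and the labels give neither ages, pooling of mice nor whether controls carried a Cre. In bulk material, more cells with an open site and more open chromatin per cell cannot be told apart. The single table of the series gives every island a peak-side and a control-side read count, with no genotype or library named for either. The values below therefore describe islands and the ratio between both sides, and genotypes are not compared.

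KLFs are zinc finger transcription factors that bind CACCC and GC-rich boxes, most often in promoters and enhancers, through a shared DNA-binding domain at the end of the protein. Outside that domain the members differ, so that some activate and others repress transcription. In lymphocytes Klf2 is known for keeping resting cells quiescent and for switching on receptors with which they leave tissues. Several members respond quickly to outside signals such as growth factors, stress, glucocorticoids or TGF-beta.

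Across all islands the peak side held 425134 reads and the control side 645087, and the median island had 18 and 27. The deposited fold divides peak-side reads by control-side reads times 0.345, and it is given here with an exact (Clopper-Pearson) 95% counting interval. Such intervals cover counting error only, since no molecular identifiers separate copies from molecules and there are no replicate values. Counts on the peak side began at 8 reads, and regions with fewer are not listed in the table. A call means an FDR under 0.05 in the authors' deposited table. Coordinates are 1-based mm10 positions.

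Most KLF genes of the set had an island where they begin. Gene starts could be placed from RefSeq (GRCm38.p6) for 8 of the 10 genes, all but Klf5 and Klf10, and an island lay over the start of 7 of them: Klf2, Klf3, Klf4, Klf6, Klf7, Klf9 and Klf13. The same held for 9522 of 21263 annotated starts of protein-coding genes (44.8%). Klf12 was the exception, and its 1 RefSeq start in the promoter table lies 136.1 kb inside the annotated gene. The promoter at the outer 5′ end of Klf12 was not examined for sequence, and no island lay there either. With any island under the rule counted, 9 of the 10 genes of the set had one, beside 11110 of 21887 protein-coding genes (50.8%). The set is not the whole family: outside it, Klf11 and Klf16 had islands, and Klf1, Klf8, Klf14, Klf15 and Klf17 had none. In the authors' deposited table the islands over the starts of Klf3 and Klf4 were not called (FDR 0.0653 and 0.297). The 7 starts with an island were rich in CpG and the internal start of Klf12 was less so. The 250 bases before the start are shown for 6 genes, with every CACCC (reverse GGGTG) and GGGCGG (reverse CCGCCC) match in capitals. Matches may overlap each other. The sequences are from RefSeq, build GRCm38.p6, and run 5′ to 3′ along the gene's strand.
Klf2 (chr8:72318812-72319061, plus strand): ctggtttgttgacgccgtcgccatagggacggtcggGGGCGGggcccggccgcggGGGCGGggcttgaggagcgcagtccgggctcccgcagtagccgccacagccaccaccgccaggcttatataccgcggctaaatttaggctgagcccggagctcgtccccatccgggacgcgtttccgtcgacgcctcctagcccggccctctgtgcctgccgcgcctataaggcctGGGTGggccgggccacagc
Klf3 (chr5:64803271-64803520, plus strand): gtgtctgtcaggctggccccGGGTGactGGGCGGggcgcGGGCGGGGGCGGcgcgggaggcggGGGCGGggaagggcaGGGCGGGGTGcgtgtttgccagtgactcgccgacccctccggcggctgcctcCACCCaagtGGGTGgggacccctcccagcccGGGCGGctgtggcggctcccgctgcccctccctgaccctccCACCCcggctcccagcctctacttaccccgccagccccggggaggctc
Klf4 (chr4:55532476-55532725, minus strand): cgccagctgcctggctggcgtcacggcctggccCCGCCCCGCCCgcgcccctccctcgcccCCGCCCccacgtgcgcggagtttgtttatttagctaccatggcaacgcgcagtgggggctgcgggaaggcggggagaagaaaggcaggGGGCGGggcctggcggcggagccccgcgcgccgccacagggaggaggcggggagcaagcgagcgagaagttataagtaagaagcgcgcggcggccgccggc
Klf6 (chr13:5861239-5861488, plus strand): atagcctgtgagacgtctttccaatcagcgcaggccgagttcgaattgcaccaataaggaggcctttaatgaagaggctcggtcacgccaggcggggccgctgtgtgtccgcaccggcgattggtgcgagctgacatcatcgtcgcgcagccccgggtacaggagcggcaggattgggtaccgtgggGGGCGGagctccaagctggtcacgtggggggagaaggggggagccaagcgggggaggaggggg
Klf13 (chr7:63938916-63939165, minus strand): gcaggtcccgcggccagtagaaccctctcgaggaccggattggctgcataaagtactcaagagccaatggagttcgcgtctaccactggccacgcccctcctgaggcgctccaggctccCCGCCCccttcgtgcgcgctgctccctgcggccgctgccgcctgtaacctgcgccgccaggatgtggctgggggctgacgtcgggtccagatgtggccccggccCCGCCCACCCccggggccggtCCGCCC
Klf12 (chr14:100149797-100150046, minus strand): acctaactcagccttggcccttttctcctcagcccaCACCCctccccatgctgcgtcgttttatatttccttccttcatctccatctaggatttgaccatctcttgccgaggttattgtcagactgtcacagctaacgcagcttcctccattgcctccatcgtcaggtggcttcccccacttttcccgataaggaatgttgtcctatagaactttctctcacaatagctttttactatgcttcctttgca

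In these 250 bases Klf3 had 5 CACCC and 6 GGGCGG matches, the most of the 6 promoters. Klf4 had 4 GGGCGG matches and no CACCC. Klf13 had 3 GGGCGG matches and 1 CACCC, and Klf2 had 2 and 1. Klf6 had 1 GGGCGG match, and Klf12 had 1 CACCC match and no GGGCGG. Over the whole window of 300 bases (250 before the start to 50 after, both strands), 6 of the 8 KLF promoters held CACCC, beside 59.5% of all promoters. GGGCGG was in 6 of 8, beside 46.2% of all promoters and 70.5% of those with an island over the start. CCAAT (reverse ATTGG) was in Klf6, Klf9 and Klf13, beside 38.2% of promoters.

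Motifs of other factors were rare in these windows. TTCAAAG, a TCF/LEF motif of the family to which TCF-1 belongs, matched in Klf6 and in no other KLF window, beside 4.54% of promoters. That match lies in the 50 bases after the start, outside the sequence printed above. ATCAAAG, the other TCF/LEF spelling searched, matched in none of the 8, nor did TGACTCA (AP-1) or CTATTTA (a MEF2-like core), which were in 3.22%, 4.66% and 2.62% of promoters. CACGTG, an E-box, was in Klf4 and Klf6 (7.84% of promoters), and TGTTTAC, a forkhead motif, in Klf9 (3.01%).

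The internal start of Klf12 had the lowest CpG content of the 8 placed starts. The ratio of observed to expected CpG was 0.426 there, with 45.7% G+C, and ran in the others from 0.659 in Klf3 to 0.974 in Klf4. The values of Klf7, Klf13, Klf6, Klf2 and Klf9 were 0.742, 0.837, 0.844, 0.889 and 0.962. Promoters with an island over the start had a median of 0.810 (interquartile range 0.664 to 0.940), and those without one 0.266 (0.130 to 0.514). Of 8724 promoters at or below the ratio of Klf12, 7.83% had an island over the start, while 78.9% of the 9127 promoters at or above that of Klf3 did.

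**Figure D1:**
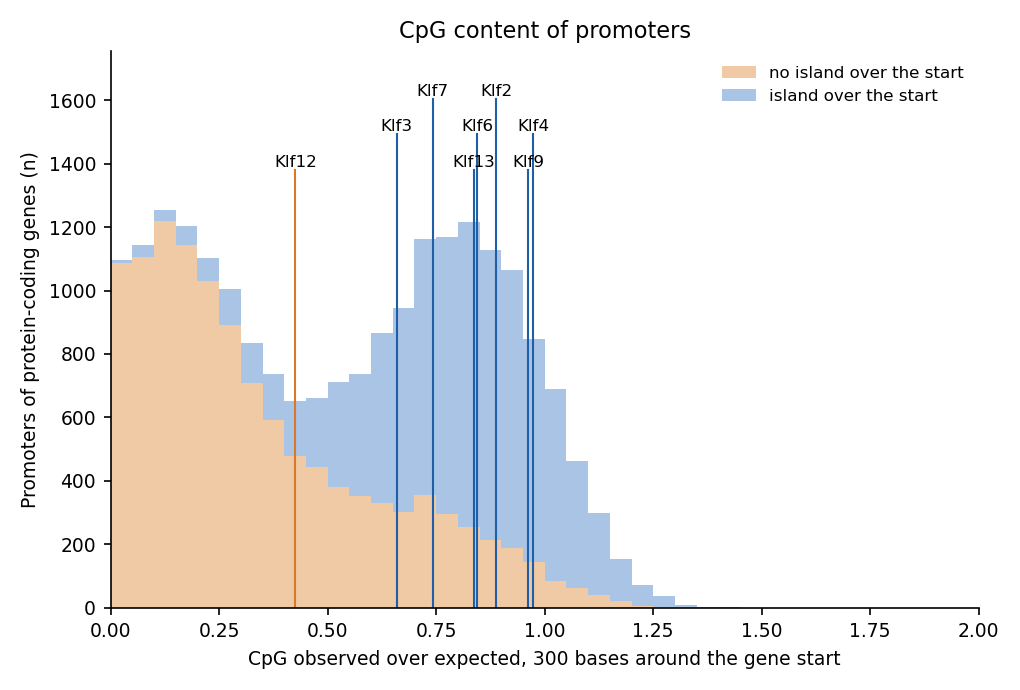
Stacked histogram of the observed over expected CpG ratio (x axis, no unit) in 300 bases around annotated starts of protein-coding genes (y axis, number of promoters), split by whether an island covers the start, with vertical lines at the 8 placed KLF promoters. The internal Klf12 start, at 0.426 and without an island, lies left of the other 7, which range from 0.659 to 0.974.

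Most reads of the set lay at gene ends. The 21 islands held 667 peak-side and 1191 control-side reads, and 8 of them lay within 1 kb of an end of their gene (all such islands span the end) with 69.0% of the peak-side reads. These 8 were broad and rich in reads, with a median width of 3700 bp (1400 to 7000) and a median of 51.5 peak-side reads (16 to 132). All 9233 gene-end islands of the table had medians of 2000 bp and 23 reads, and 7 of the 8 KLF islands were above each. The other 13 islands had a median of 13 peak-side reads (8 to 44), as had the 7351 other islands of the table.

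**Figure D2:**
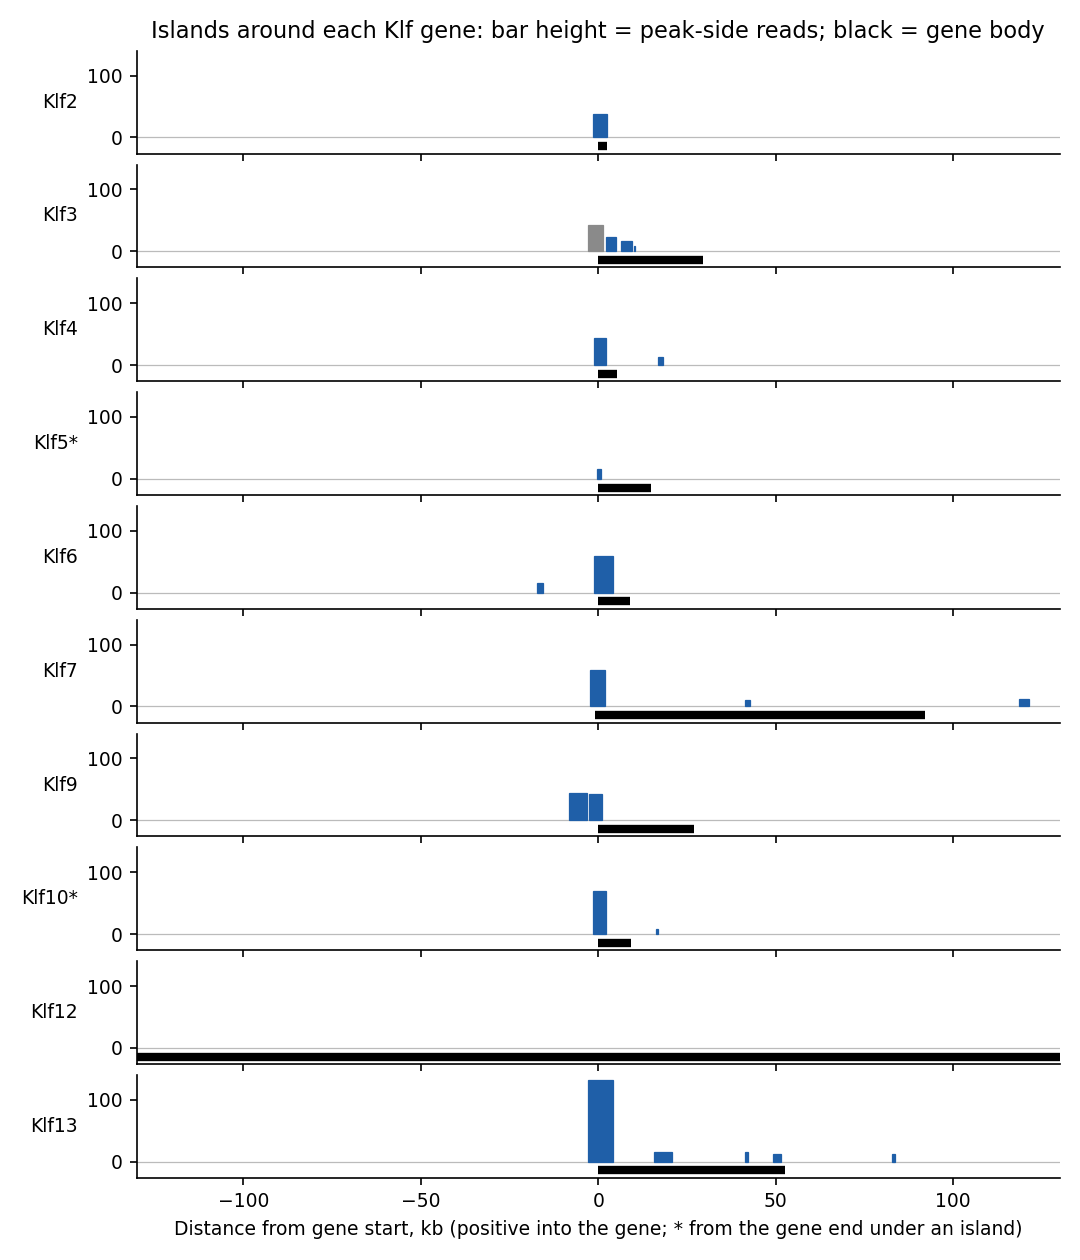
Islands around each KLF gene against distance from the gene start (x axis, kb, positive into the gene), with bar height as peak-side reads (y axis, the same on every row), bar width as island width and the gene body in black. For Klf5 and Klf10, marked with an asterisk, distance is from the gene end under an island. The tallest bar is that of Klf13 (132 reads), the grey bar of Klf3 is an island assigned to the overlapping Gm38457, and the row of Klf12, whose body fills the window, has no bar.

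Of the 21 islands, 15 (71.4%) were called in the authors' deposited table, beside 82.3% of all islands. At least 1 called island was present at 6 genes, Klf2, Klf3, Klf6, Klf7, Klf9 and Klf13, of the 9 with an island, beside 86.0% of all genes with an island. No island of Klf4, Klf5 or Klf10 was called. Every fold in the set was over 1, from 1.01 to 16.0, but the interval lay above 1 in 11 of the 21. Folds under 1 were rare in the whole table, at 277 of 16584 islands. The share of all islands with an interval above 1 was not counted. The median fold was 1.76 (interquartile range 1.51 to 2.61), beside 2.01 (1.61 to 2.62) over the table, and the pooled fold was 1.62 (1.48 to 1.79). The number of calls and the level of every fold rest on the scale factor. Scaled by the reads in all islands, 1 of the 21 islands was called, the Klf7 island with 11 and 2 reads. With that scaling 1524 of all 16584 islands were called, and the pooled fold of the set was 0.850.

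Klf13, also known as RFLAT-1, an activator of the chemokine gene Ccl5 in T cells, had the most reads of the set. Its 5 islands held 187 and 290 reads, more peak-side reads than 99.9% of protein-coding genes, with a pooled fold of 1.87 (1.55 to 2.26). The island over its start (chromosome 7, 63934801 to 63941800) was 7000 bp wide and ranked 21st of 16584 by peak-side reads. Its 132 and 224 reads gave a fold of 1.71 (1.37 to 2.13). Inside the gene, islands at 63887401 to 63889800 and 63896801 to 63897600, which lie 49.1 and 41.3 kb downstream of the start, had 12 and 13 reads and 16 and 20 reads. Folds were 2.68 (1.12 to 6.36) and 2.32 (1.12 to 4.71). A further island inside Klf13 (63918201 to 63923200) spanned an end of E030018B13Rik, a gene nested in it, where 15 and 23 reads gave a fold of 1.89 (0.918 to 3.78). Beyond the far end of Klf13, 30.2 kb away, lay an island (63855201 to 63856200) with a fold of 3.48 (1.38 to 8.99) from 12 and 10 reads. Each of the 5 was a call of the authors' deposited table.

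Klf6 and Klf7, the closely related pair of the family, had the next largest gene-end islands among those called. Klf6, an early response gene of growth and stress signals, showed 59 and 97 reads over its start (chromosome 13, 5860401 to 5865600), a fold of 1.76 (1.25 to 2.46). A second Klf6 island lay 15.5 kb upstream (5844201 to 5846000), where 15 and 12 reads gave a fold of 3.63 (1.58 to 8.48). The 2 intervals overlap. Over the Klf7 start (chromosome 1, 64119601 to 64123800) there were 59 and 84 reads, a fold of 2.04 (1.44 to 2.88), the largest of the 8 gene-end islands. An island inside Klf7, 41.4 kb downstream of its start (64078601 to 64080000), had 11 and 2 reads. Its fold of 16.0 (3.48 to 148) was higher than that of 99.7% of islands, and its interval did not overlap that of the Klf7 start. Past the far end of Klf7, by 26.4 kb, lay an island (64000001 to 64003000) whose 12 and 20 reads gave a fold of 1.74 (0.776 to 3.74). In the authors' deposited table every island of both genes was called, the last one at an FDR of 0.0315.

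Klf2, the quiescence and trafficking factor, had a single island (chromosome 8, 72317601 to 72321400). It covered the start and most of the short gene, where 38 and 63 reads gave a fold of 1.75 (1.14 to 2.66), and was called at an FDR of 0.00124 in the authors' deposited table. The nearest other island was 78.5 kb from the gene.

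Klf3, a repressor that acts through CtBP proteins, had its accessible regions in a row across the first part of the gene (chromosome 5). From 2.28 kb downstream of the start, islands at 64805801 to 64808400, 64810001 to 64813000 and 64813601 to 64813800 had 23 and 20, 17 and 25, and 9 and 10 reads. Their folds were 3.34 (1.75 to 6.40), 1.97 (1.00 to 3.80) and 2.61 (0.939 to 7.15), and the authors' deposited table called each. The nearest gene end of all of them belongs to Gm38457, a predicted gene that overlaps the start of Klf3, and they count for Klf3 because they lie inside it. The island over the Klf3 start itself (64800601 to 64804800) also spans an end of Gm38457, to which it was assigned, and is not among the 21. Its 42 and 96 reads gave a fold of 1.27 (0.861 to 1.84), short of a call in the authors' deposited table (FDR 0.0653). Counted for both genes, it brings the islands of the set to 22, still with 15 called.

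Klf9, a glucocorticoid-responsive member, had 2 broad islands on chromosome 19 with a gap of 600 bp between them. The one over the start (23138601 to 23142200) had 42 and 79 reads, a fold of 1.54 (1.03 to 2.27) and an FDR of 0.00551 in the authors' deposited table. The one upstream (23133001 to 23138000) had 44 and 106 reads, which made a fold of 1.20 (0.827 to 1.73), with an FDR of 0.108 in the same table. The difference between them was not tested, so the call on one and not on the other does not show that they differ.

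**Figure D3:**
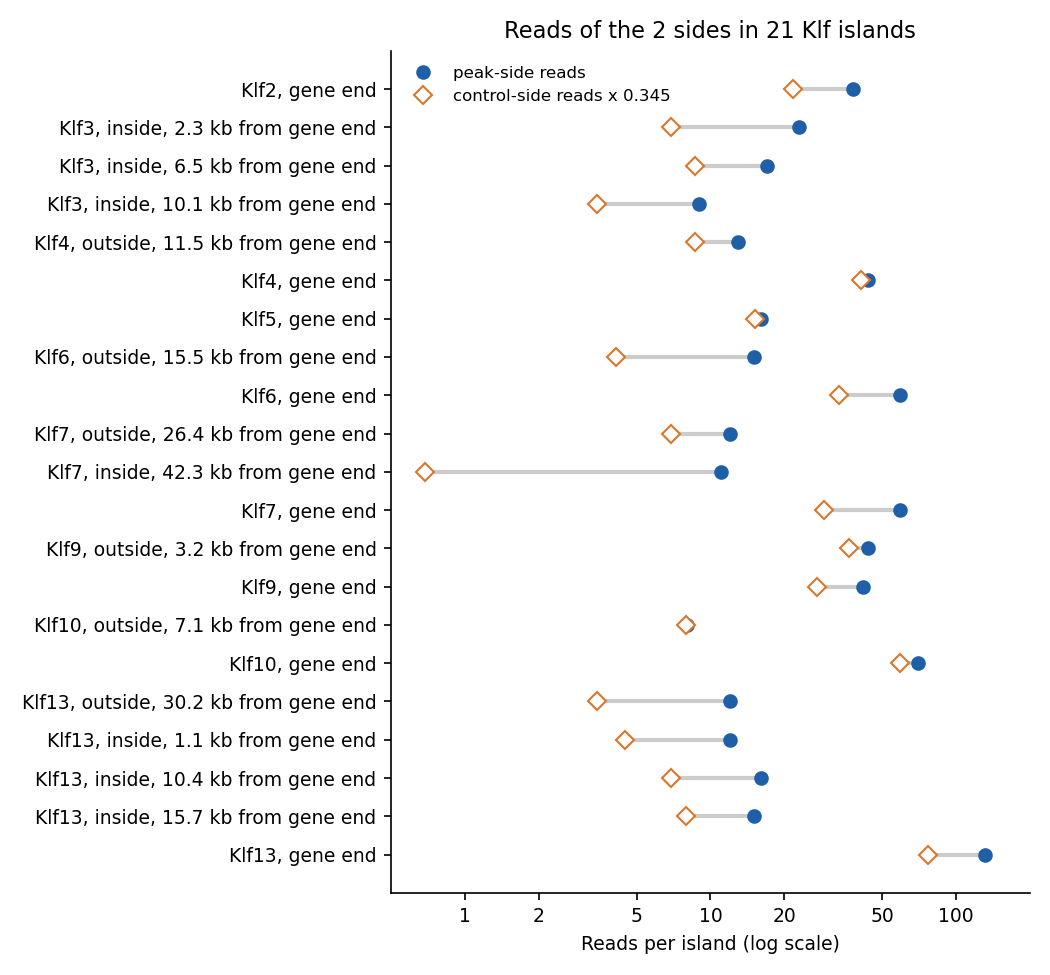
Reads in each of the 21 KLF islands (x axis, reads per island on a log scale), with peak-side reads as filled circles and control-side reads times 0.345 as open diamonds, 1 row per island. The symbols nearly coincide for Klf4, Klf5 and Klf10 at their gene ends (folds 1.07, 1.05 and 1.18), and lie farthest apart for the Klf7 island 42.3 kb from a gene end (11 and 2 reads before scaling).

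Klf10, Klf4 and Klf5 had islands with low folds. Klf10, a TGF-beta-inducible member, had 70 and 172 reads over a gene end (chromosome 15, 38298601 to 38302200), second to Klf13 in the set. Its fold was 1.18 (0.881 to 1.57), with an FDR of 0.0864 in the authors' deposited table. A small island 7.06 kb beyond its other end (38284001 to 38284400) had 8 and 23 reads, which made a fold of 1.01 (0.390 to 2.34). Klf4, known from stem cells, epithelium and monocytes, had 44 and 119 reads over its start (chromosome 4, 55530201 to 55533800), with a fold of 1.07 (0.741 to 1.53). Its other island, 16.9 kb downstream of the start (55514201 to 55515600), had 13 and 25 reads, a fold of 1.51 (0.709 to 3.06). Klf5, a factor of proliferating gut epithelium, had 16 and 44 reads over a gene end (chromosome 14, 99298201 to 99299600), at a fold of 1.05 (0.556 to 1.91), and no other island within 135.2 kb. In the authors' deposited table the FDR was 0.297 for Klf4 at its start and 0.361 for Klf5.

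For islands so rich in reads, folds as low as those of Klf4 and Klf10 were uncommon. Of 1768 gene-end islands with at least 38 peak-side reads, the count of Klf2, 98.2% were called in the authors' deposited table and the median fold was 1.92 (interquartile range 1.69 to 2.20). Of those islands 0.226% had a lower fold than Klf4 and 0.452% a lower fold than Klf10. This comparison was chosen after the values were seen and is a description. Among the 8 KLF gene-end islands themselves, intervals overlapped in all 28 pairs, and the differences between them were not tested.

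Each island was also tested against the share of reads on the peak side over all islands (39.7%), with a two-sided exact binomial test and Benjamini-Hochberg adjustment over all 16584 islands. This compares reads within 1 table, not conditions. No KLF island passed an adjusted p of 0.05, while 0.127% of all islands passed above the share and 0.271% below it. At an unadjusted p under 0.05 there were 5 KLF islands, of which 4 were below the share: the gene-end islands of Klf4, Klf10 and Klf5, and the upstream island of Klf9. Of all islands, 9.56% reached that level in this test, and 3.37% did so below the share. The unadjusted and adjusted p from this binomial test were 0.000606 and 0.0857 for Klf10, and 0.000749 and 0.0920 for Klf4. The fifth was the Klf7 island with 11 and 2 reads, above the share (unadjusted p 0.00123, adjusted p 0.131). With the share set by the median ratio of islands instead, the binomial test called the gene-end islands of Klf10 and Klf4, beside 85 of all 16584 islands. The smaller adjusted p of the 2 in that test was 0.0340 (Klf10). With the share of gene-end or other islands by class, the binomial test called 76 of all islands. No KLF island was among them, with a smallest adjusted p of 0.176 in the set.

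**Figure D4:**
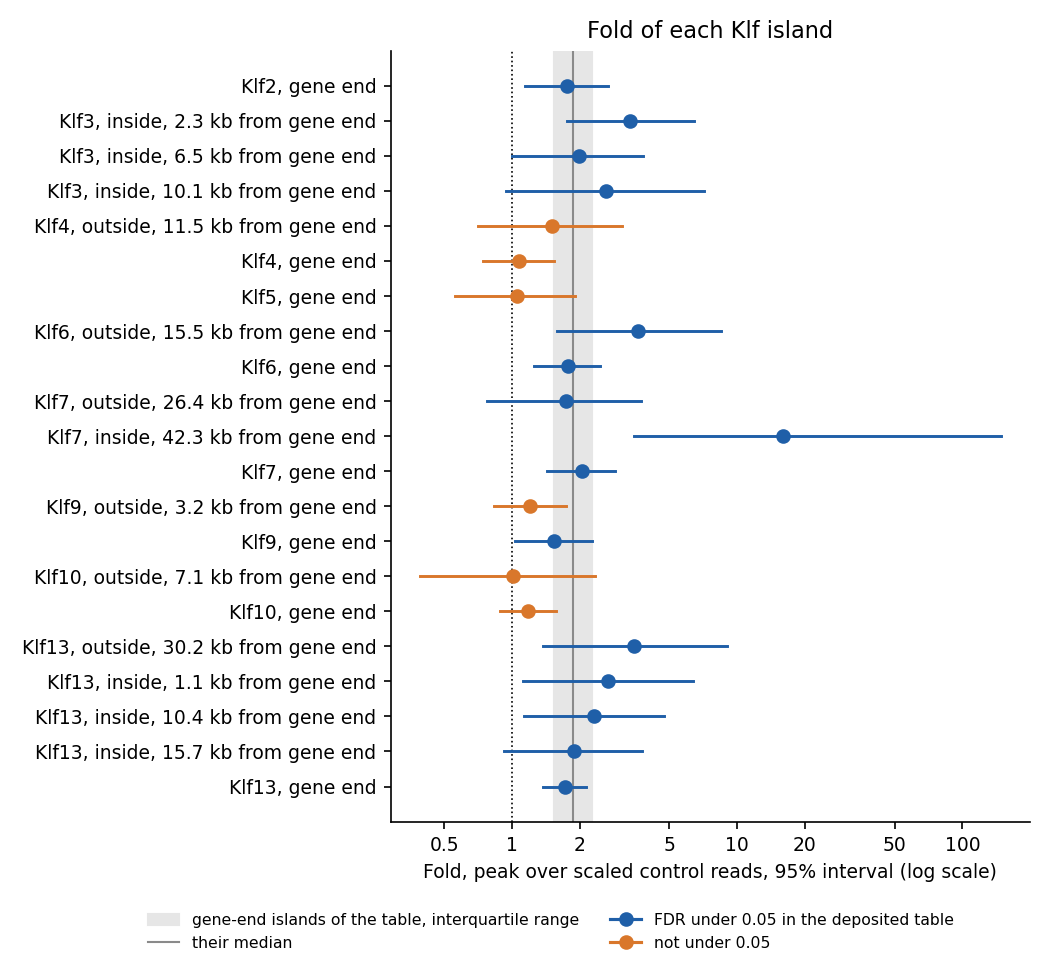
Fold of each KLF island (x axis, log scale) with its exact 95% counting interval, in blue where the deposited FDR is under 0.05 and in orange where it is not; the grey band and line are the interquartile range (1.54 to 2.27) and median (1.86) of all gene-end islands, and the dotted line is a fold of 1. Most intervals cross the band, and those of every Klf4, Klf5 and Klf10 island reach below 1, as do some of Klf3, Klf7, Klf9 and Klf13.

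Folds away from gene ends and at gene ends were set side by side, with no test of the difference. Pooled folds were 1.94 (1.62 to 2.32) for the 13 other KLF islands and 1.51 (1.35 to 1.70) for the 8 at gene ends, and these intervals overlap. Median folds were 2.32 and 1.63 in the set, and 2.32 and 1.86 over the table. Of the 8 gene-end islands, 7 lay under the table's median for such islands, with Klf7 as the one above, and of the 13 others 6 lay under theirs.

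**Figure D5:**
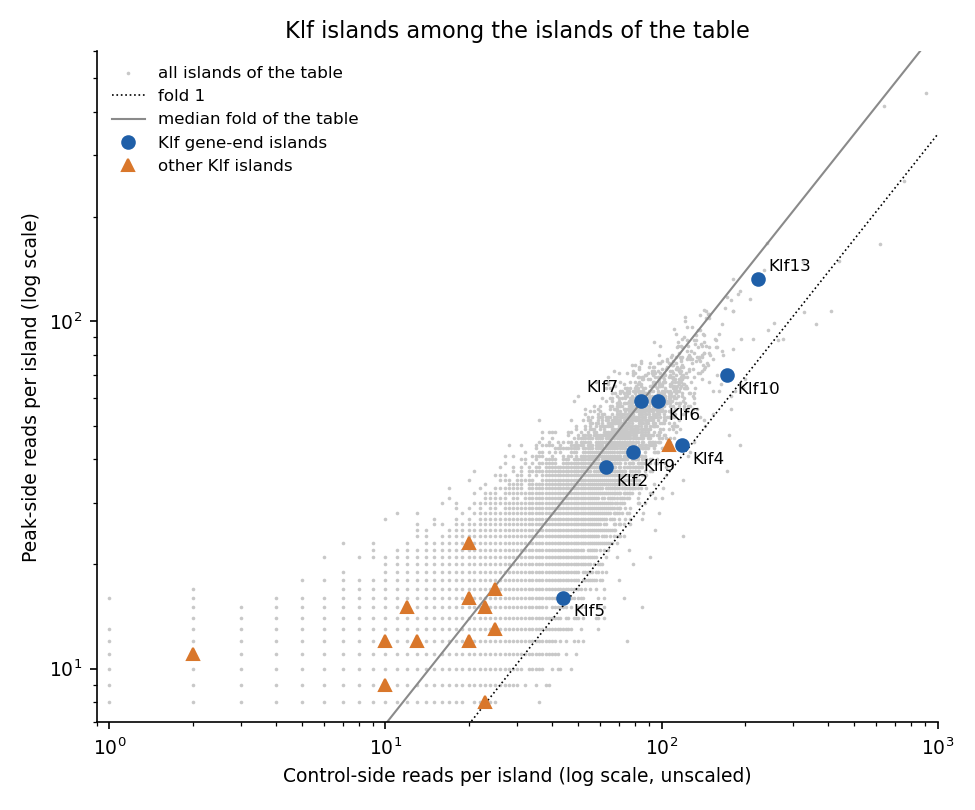
Peak-side reads against unscaled control-side reads of each island (both axes logarithmic), with all islands of the table inside the axis range in grey, KLF gene-end islands as circles and other KLF islands as triangles; lines mark a fold of 1 (dotted) and the median fold of the table, 2.01 (solid). The circles of Klf4, Klf5 and Klf10 lie near the dotted line, and that of Klf7 near the solid one.

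Klf12, a repressor like Klf3, is the longest gene of the set (chromosome 14, 99866181 to 100285891, 419.7 kb). No island lay in it, and the nearest was 415.8 kb from it. Absence of islands is common among genes of any size. Of 316 protein-coding genes at least as long, 185 (58.5%) had none, and of all protein-coding genes 11110 of 21887 (50.8%) had one. Outside the window, 5 islands had an end of a KLF gene as their nearest, the closest of them 72.5 kb from Klf10 (19 and 25 reads), while the farthest one inside it was that at 30.2 kb from Klf13. All 5 islands outside the window had higher folds than the gene-end islands of the same genes, and these differences were not tested. The gene-end folds of Klf4, Klf5 and Klf10 were low (1.07, 1.05 and 1.18). Over the table, median folds were also higher away from gene ends (2.32) than at them (1.86). Folds of the 5 islands were 6.38 for Klf6 (11 and 5 reads at 81.1 kb) and 3.04 for Klf5 (22 and 21 reads at 135.2 kb). They were 2.20 for Klf10, and 1.93 (12 and 18 reads) and 1.97 (17 and 25 reads) for Klf4.

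The other KLF and SP genes, which share the same type of zinc fingers, had islands at 11 of 16 and called ones at 10, beside 50.8% and 43.6% of all protein-coding genes. Sp4 (100 and 122 reads, pooled fold 2.38, 1.81 to 3.12) and Sp2 (87 and 115 reads, 2.19, 1.64 to 2.92) had the most peak-side reads. Next were Sp1 (77 and 138 reads, 1.62, 1.21 to 2.15) and Klf16 (68 and 137 reads, 1.44, 1.06 to 1.94). Klf1, Klf8, Klf14, Klf15 and Klf17 had none. Klf1 is the erythroid founder of the family, and Klf14 and Klf15 are known from metabolic tissues. The median fold of the 20 islands of this list was 2.05.

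Genes that act on KLFs or with them are read against the same shares of all genes, 50.8% with an island and 43.6% with a called one. The kinases and MEF2 factors that switch on Klf2 and Klf4, together with Foxo1, an activator of Klf2, had islands at 7 of 7 genes and called ones at 6. Mef2d had 115 and 188 reads (pooled fold 1.77, 1.39 to 2.25), Mef2a 66 and 81 (2.36, 1.68 to 3.31), Map3k3 53 and 102 (1.51, 1.06 to 2.12) and Foxo1 47 and 91 (1.50, 1.03 to 2.15). Cofactors and ubiquitin ligases of KLF proteins had called islands at 10 of 12 genes, all but Ctbp2 and Hdac3. The corepressor gene Sin3a had 130 and 203 reads (1.86, 1.48 to 2.33), and the ubiquitin ligase gene Fbxw7 had 62 and 106 (1.70, 1.22 to 2.34). The coactivator gene Ep300 had 55 and 92 reads (1.73, 1.22 to 2.45). Ctbp1, the CtBP partner of Klf3 and Klf12, had 54 and 104 reads (1.51, 1.06 to 2.11). Median folds of the islands of these lists were 1.80 and 1.77.

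Genes known as KLF targets had called islands at 5 of 8, beside 43.6% of all protein-coding genes. S1pr1, the sphingosine-1-phosphate receptor that Klf2 activates, had 2 islands whose 41 and 52 reads gave a pooled fold of 2.29 (1.48 to 3.51). Ccl5, the target of Klf13, had none, and neither did Lgals3. Cdkn1a, a cell cycle brake, had 82 and 116 reads (2.05, 1.53 to 2.74), Smad7, an inhibitor of TGF-beta signalling, had 76 and 136 (1.62, 1.21 to 2.16) and Ccr7, a homing receptor, had 47 and 51 (2.67, 1.76 to 4.05). Calls of all these lists are those of the authors' deposited table.

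Markers were read by the same rule, beside 50.8% of all protein-coding genes with an island and 43.6% with a called one. Of 10 LTi markers, 9 had an island and 8 a called one in the authors' deposited table, and Ccr6, used in the gate, had none. Il1r1, the IL-1 receptor of these cells, led with 129 and 103 reads (pooled fold 3.63). Each list of other cells had 6 genes. Islands were present at 1 T cell marker, Cd3d (17 and 17 reads, pooled fold 2.90). They were present at 2 B cell markers, Pax5 (22 and 25 reads, 2.55) and Cd79b (18 and 17 reads, 3.07). So it was at 1 NK and ILC1 marker, Eomes (20 and 45 reads, 1.29), and at 1 myeloid marker, Fcgr3 (63 and 75 reads, 2.44). The other genes of these lists, Cd3e, Cd79a, Ncr1 and Csf1r among them, were without any. Of these markers with an island, all but the NK and ILC1 one had a called island. Epithelial and stromal markers had islands at 5 of 6 genes, 133 and 173 reads over 9 islands, and Vil1 was the one without. Called islands were present at the same 5 genes. Pooled folds there ran from 1.53 (Epcam, 1.01 to 2.28) to 4.71 (Krt8, 1.81 to 13.1). Epithelial cells are known to use Klf4 and Klf5, and the part of other cells in the islands of both genes was not tested.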

How the data were processed

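DNase-seq was run on 2 Ctrl and 2 Tcf7-KO libraries of sorted LTi cells. Build mm10, Bowtie2 2.4.2 and SICER 2.0 are named, per the submitters' processing notes, while pooling and filters are not given in the sources at hand. The authors deposited 1 table with raw read counts of a peak side and a control side per island, and, per the file headers, a p-value, a fold change (ratio) and an FDR. Recomputing folds and p-values of all 16584 deposited islands from their counts matched within 0.001, with a control-side factor of 0.345, 0.25 reads for 0 and p set to 1 for folds under 1. Library totals and per-library values were not analysed here, so models of replicates were not run.

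Genes came from RefSeq GRCm38.p6 (21887 protein-coding genes). All 10 members matched, and 8 had a promoter sequence. An island spanning ends of several genes went to the end nearest its midpoint. Python 3.11.15 and scipy 1.17.1 gave exact intervals and the binomial test. In simulations on 16584 islands, that test recovered 15% of islands of at least 40 reads (both sides together) changed 2-fold, 74% at 3-fold and 89% at 4-fold. Many KLF islands held fewer reads, among them the Klf7 island with 11 and 2, and these recoveries do not cover them. Of the 21 KLF islands, 12 had fewer than 20 peak-side reads. Simulated counts held binomial error only. The members and lists were chosen with earlier results of these data known. All islands of members were named, with up to 4 genes of each other list by peak-side reads and those without an island; marker lists were given as counts, with Il1r1 as the leading LTi gene and Epcam and Krt8 singled out after their values were seen. Some genes of these lists, and the driver of the Cre, are not reported here. Scalings, windows, FDR thresholds, read minimums and shares were varied.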

Additional observations from a re-analysis of the deposited data

How the results depend on the processing

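No paired analysis was possible because neither read column names a library, and replicates could not be left out. Counting islands that span 2 gene ends for both genes, and leaving islands of over 1000 reads and mitochondrial DNA out of the share, were chosen after seeing the data. With at least 20 peak-side reads, 9 islands were left in place of 21, and 6 called in place of 15. A fold over 2 beside the FDR left 8. Scaling of the control side, either by reads over all islands or to a median ratio of 1, left 1 called KLF island each time. Of all 16584 islands, 1524 or 1097 were then called. The pooled fold of the set was 0.850 or 0.809 in place of 1.62. Lower folds are built into both scalings, and the median fold of all islands was then 1.05 or 1. Islands away from gene ends gave a pooled fold of 1.94. The binomial test called 2 KLF islands with the median ratio, where 85 of all islands were called. It called no KLF island under its other settings, where 59 to 76 of the islands tested were called. Folds over 1 were left at 9 of 21 islands by total reads and at 8 by median ratio. Of the 15 called islands, those under 1, by total reads and by median ratio, were 0.915 and 0.871 (Klf2), 0.923 and 0.879 (Klf6 start), 0.910 and 0.867 (Klf7, far end), 0.807 and 0.768 (Klf9 start), 0.990 and 0.942 (Klf13, at E030018B13Rik) and 0.894 and 0.851 (Klf13 start), and by median ratio alone the second Klf3 island (0.982). The 6 islands not called, both of Klf4, both of Klf10, that of Klf5 and the upstream one of Klf9, were all under 1, from 0.528 to 0.789 and from 0.502 to 0.751. Pooled folds under 1 were 0.601 and 0.572 (Klf4), 0.705 and 0.671 (Klf9), 0.607 and 0.578 (Klf10) and 0.978 and 0.931 (Klf13), and by median ratio alone 0.981 (Klf6). Windows of 10 kb or the gene body, the midpoint, an FDR under 0.01, islands counted for both genes and leaving out Klf13 left 12 to 15 calls where calls were recounted, 16 to 22 islands, and pooled folds of 1.55 to 1.60. Depth also limits single islands: the median ratio of upper to lower bound was 3.80.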
